A study of Mus musculus with 6 samples.

Results

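Messenger RNA of one gene can be made as several transcripts, and the transcript that leads in a cell can change when the cell is stimulated. The genes described here are protein-coding mouse genes whose leading annotated transcript differed between control and lipopolysaccharide-treated macrophages. A gene could enter with at least 100 raw counts in each control and each LPS library, which 4365 of 21987 protein-coding genes had. In each library the transcript with the highest FPKM (counts per annotated length and per effective library size) was taken as the top transcript. A gene was kept where both control libraries shared a top transcript and both LPS libraries shared a different one, which left 96 genes, or 2.2% of those above the minimum. The genes were chosen by these FPKM and count values of the control and LPS libraries, so the control and LPS levels below are descriptions and carry no test, and the LPS+HACA libraries, which the choice did not use, are given beside them.

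The cells were wild-type bone marrow-derived macrophages of the mouse, grown from marrow progenitors. There were 3 groups of 2 libraries each: an untreated control, cells given LPS, a bacterial membrane component sensed by the receptor TLR4, and cells that received HACA in addition to LPS. HACA is not spelled out in the labels, which state no dose and no time. From its title, the series concerns hyaluronic acid nanoparticles for psoriatic skin. They do not say whether replicates were separate cultures or animals, so p-values measure the spread between these libraries, which may be technical.

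As background, transcripts of a gene differ by where transcription starts, which exons are joined and where the RNA is cut and polyadenylated. In a retained-intron transcript an intron has stayed in the RNA, and such RNA often stays in the nucleus or is degraded. A transcript annotated for nonsense-mediated decay has an early stop codon and is a candidate for destruction during translation. Macrophages answering LPS are known to use other start sites and splice sites for some genes, among them genes of the inflammatory response.

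Tsc22d1 is the gene with the clearest change, and its sequences are shown because its transcripts begin at start sites far apart. The gene lies on the plus strand of GRCm38 at chr14:76414961-76507765 and encodes leucine zipper proteins of the TSC22 family, with long and short forms that share their C-terminal end. Below are 250 bases before each RefSeq start (GRCm38.p6) in lower case and the first 30 transcribed bases in capitals, at chr14:76414711-76414990 and chr14:76504260-76504539. The upstream start is the gene's first and coincides with that of Tsc22d1-204, and the downstream start lies 20 bases from that of Tsc22d1-206, the LPS leader. The control leader, Tsc22d1-213, starts further in, at position 76418354, and neither window covers that start.
Tsc22d1 upstream start: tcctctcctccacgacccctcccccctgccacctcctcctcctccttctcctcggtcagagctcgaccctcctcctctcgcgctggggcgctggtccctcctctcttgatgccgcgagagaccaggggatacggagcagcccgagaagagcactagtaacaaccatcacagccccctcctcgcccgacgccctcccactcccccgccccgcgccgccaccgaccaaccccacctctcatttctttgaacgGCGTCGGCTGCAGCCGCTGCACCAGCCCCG
Tsc22d1 downstream start: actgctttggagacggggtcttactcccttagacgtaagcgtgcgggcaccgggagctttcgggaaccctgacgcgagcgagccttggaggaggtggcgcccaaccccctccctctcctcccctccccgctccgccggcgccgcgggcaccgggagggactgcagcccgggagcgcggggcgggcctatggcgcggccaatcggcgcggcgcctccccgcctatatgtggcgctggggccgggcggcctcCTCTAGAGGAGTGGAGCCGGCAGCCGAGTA
G and C made up 68.2% of the upstream window and 72.9% of the downstream one. Both were searched on both strands, with the next 20 bases of the table's entry, for AP-1 (TGANTCA), C/EBP (TTGCNNAA), E-box (CACGTG), the core of the interferon-stimulated response element, CRE (TGACGTCA) and the kappaB consensus. Neither held any of these letters. Of the 5 RefSeq starts of the gene, 1 did: the window around position 76415821, 234 bases from the start of Tsc22d1-202, held the E-box and the kappaB consensus. Among 32851 promoters of the same length, 7.81%, 10.8%, 7.15%, 3.44%, 1.79% and 8.46% held them, in that order. RefSeq promoters were in hand for 78 of the 96 genes.

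A retained-intron transcript that overlaps its coding partner can differ from it at an exon boundary, where it reads on into the intron. Boundaries of 3 genes are shown because their leading transcript passed from a retained-intron form in control to a coding form in LPS. Each run has 15 bases up to the last exon base and the next 15 in the RNA, from the GENCODE vM21 transcript sequences. Capitals mark the first 2 bases after the exon end, which are the intron's GT where the RNA reads through.
Ddit3-202, read through, last exon base chr10 127293759: cacacctgaaagcagGTaatcttggccacc
Ddit3-201, spliced: cacacctgaaagcagAAcctggtccacgtg
Srsf2-203, read through, last exon base chr11 116852021, minus strand: cttcctaagaaaatgGTaatgtctgcggga
Srsf2-201, spliced: cttcctaagaaaatgATgaatcggcaagcg
Aldh2-203, read through, last exon base chr5 121572017, minus strand: attgccaaggaggagGTgagcccctgggcc
Aldh2-201, spliced: attgccaaggaggagATctttggaccagtg
Srsf2-203 holds the whole intron of 1059 bases, while Ddit3-202 and Aldh2-203 hold part of theirs. Among the 40 genes whose pair was a retained-intron and a coding transcript, 7 had a coding transcript's intron whole inside the retained form.

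For most of the 96 genes the transcripts in question were close rivals, and the change of leader was small. The control transcript led by a median of 1.35 times in FPKM in control, and the LPS transcript by 1.41 times in LPS. Among 2952 genes with a single leader in both groups, that leader was ahead of the second transcript by a median of 5.50 times in control. In 70 of the 96 genes the lead was under 1.2-fold in some library, and 2 genes led at least 2-fold in every control and LPS library. These were Tsc22d1 and Erp29, a chaperone of the endoplasmic reticulum, whose LPS leader Erp29-204 had a share of 28.2% and 24.8% in control, 67.1% and 69.3% in LPS against 50.6% and 33.7% in LPS+HACA. The lead in Erp29 held in FPKM only, since in raw counts its leader was not ahead of its rival in every control and LPS library. The smallest lead of a gene over its 4 libraries ran from 1.002 to 7.33, with a median of 1.10.

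The share of the LPS transcript in the pair, in percent of the pair's summed FPKM, is used below as the level of a switch. Its median over the 96 genes was 44.3% and 41.6% for control, 56.9% and 59.99% for LPS, and 49.0% in each LPS+HACA library. The difference between the LPS and control means ran from 3.26 to 86.7 percentage points, with a median of 17.5. Replicates of one group also disagreed: the top transcript differed between the 2 control libraries in 335 of the 4365 genes, between the LPS libraries in 336 and between the LPS+HACA libraries in 347. A control and an LPS library differed in 363 to 450 genes, so a change of leader was only somewhat more frequent between these groups than within one.

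**Figure D1:**
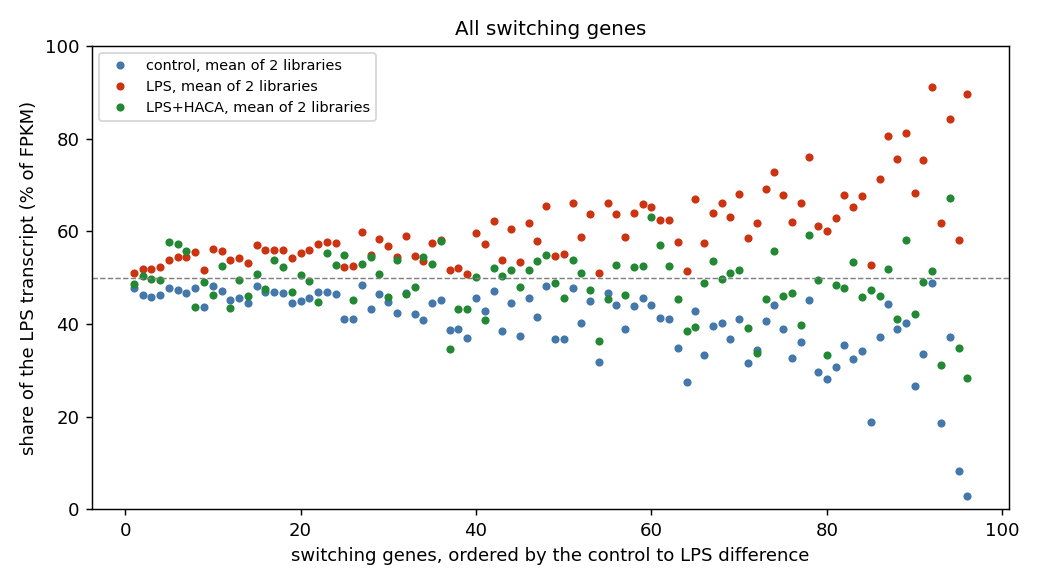
Share of the LPS transcript in the pair (vertical axis, percent of FPKM) for the 96 switching genes, ordered by the control to LPS difference; points are means of 2 libraries and the dashed line marks 50%. Control lies below the line and LPS above it by the choice of genes, differences run from 3.26 to 86.7 points, and the LPS+HACA mean lies between the other means in 81 genes.

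Depth and counting set how these ranks can be read. In 79 of the 96 genes each top transcript had at least 20 raw counts in its libraries, and the lowest count behind a top transcript had a median of 48.5. The deposited counts lack reads that fall on bases shared by several transcripts, yet FPKM divides by the full annotated length. A top transcript is therefore the leader in this measure and may not be the most abundant RNA. The control transcripts had a median of 619 bases of their own in a median length of 1019 bases, and the LPS transcripts 791 in 2312.5. With raw counts in place of FPKM 59 genes switched, 5 of them with the same pair (Ddit3, Srsf2, Ncapg2, Ero1lb and Plekhn1), and with counts per own base 91 switched, 10 with the same pair. Another annotated gene overlapped 71 of the 96, and reads were apparently counted without regard to strand, so reads of an overlapping neighbour cannot be told apart from the gene's own. In 12 genes over 10% of the 50-base words of a transcript recurred in another gene: Appl2, Cr1l, Cyb5r4, Ero1lb, Hbs1l, Mthfsl, Rmnd1, Rnf141, Safb2, Sp110, Sp140 and Wtap, and their counts are uncertain.

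Retained-intron transcripts were frequent among the leaders, more so in control than in LPS. The control leader was a retained-intron transcript in 54 genes, a coding one in 26, a processed transcript in 12 and one annotated for nonsense-mediated decay in 4. The LPS leader was a coding transcript in 50 genes, a retained-intron one in 36, a processed one in 6 and one annotated for decay in 4. From a retained-intron to a coding transcript passed 29 genes, the opposite way 11, and between 2 retained-intron transcripts 20. Genes with an unchanged leader had a coding transcript on top in 85.8% of 3727 and a retained-intron one in 10.4%. A retained-intron transcript was in the pair of 70 of the 96 genes (72.9%) and among the top and the second transcript of 55.5% of the 2952 single-leader genes. Starts of the pair lay over 1000 bases apart in 63 of the 96 genes, against 52.2% of the single-leader genes, and ends in 90, against 91.3%.

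When the same choice was made for each pair of groups, with the minimum in all 6 libraries, 4354 genes could enter. Control and LPS+HACA had different leaders in 44 genes, and LPS and LPS+HACA in 68, beside 96 for control and LPS. From control to LPS+HACA 8 genes passed from a retained-intron to a coding leader and 7 the opposite way. From LPS to LPS+HACA 1 gene, Anxa3, did so and 21 went the opposite way. These comparisons share libraries, so their counts are not independent of each other.

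In the switching genes with at least 60 counts of each type, the log2 ratio of retained-intron to coding counts within a gene needs no scaling between libraries. Its median over 70 genes was -0.46 and -0.15 in control, -0.68 and -0.76 in LPS against -0.44 and -0.40 in LPS+HACA. Both LPS libraries lay below both control libraries in 45.7% of the 70 genes and above them in 22.9%. In 2059 other genes above the minimum, which the choice left out, the medians were lower throughout: -2.59 and -2.46 in control, -3.01 and -2.72 in LPS against -2.62 and -2.36 in LPS+HACA. There, both LPS libraries lay below both control libraries in 39.8% and above them in 10.8% of genes, and both LPS+HACA libraries above both LPS libraries in 39.3% and below them in 7.82%. The median difference of these genes was -0.30 for LPS against control and 0.31 for LPS+HACA against LPS. With 2 libraries against 2 an exact permutation test of the medians cannot go below a two-sided p of 0.333. Summed over those other genes, the retained-intron share of counts overlapped between the groups, at 5.97% and 6.86% in control, 5.86% and 6.05% in LPS against 6.55% and 7.83% in LPS+HACA.

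**Figure D2:**
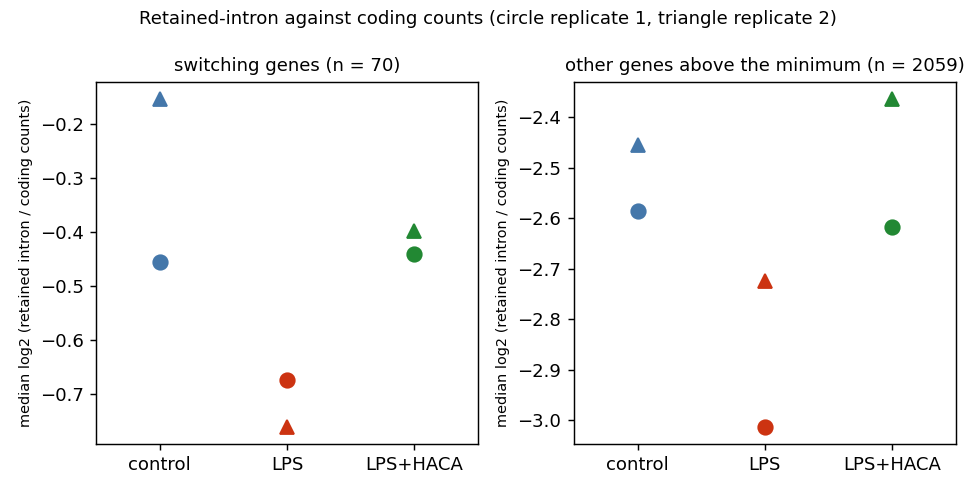
Median log2 ratio of retained-intron to coding counts per library (vertical axes, different ranges), in 70 switching genes (left) and 2059 other genes above the minimum (right); circles are replicate 1 and triangles replicate 2. The LPS libraries are the lowest in both panels, at -0.68 and -0.76 on the left and -3.01 and -2.72 on the right.

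In Tsc22d1 the leading start site differed between the groups. Counts of single transcripts below are raw, and libraries differ in size, so they are read within a library or as shares. The control leader was Tsc22d1-213, annotated for nonsense-mediated decay, with 136 and 165 counts in control, 33 and 69 in LPS against 158 and 127 in LPS+HACA. The LPS leader was Tsc22d1-206, a coding transcript that starts 86176 bases further downstream, with 2 and 1 counts in control, 85 and 249 in LPS against 18 and 21 in LPS+HACA. Its share of the pair was 4.01% and 1.69% in control, 88.0% and 91.1% in LPS against 24.5% and 32.0% in LPS+HACA. The 3 groups did not overlap, and both LPS+HACA libraries kept the control leader.

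Other Tsc22d1 transcripts are given in FPKM, since single transcripts are set against each other across libraries. Of the long coding transcripts from the upstream starts, Tsc22d1-204 had 1.75 and 2.44 FPKM in control, 0.591 and 0.661 in LPS against 1.24 and 1.71 in LPS+HACA. Tsc22d1-202 had 1.58 and 1.46, 0.430 and 0.591, and 1.07 and 1.13 FPKM in the same order, so both were lowest in LPS. Of the short coding transcripts from the downstream starts, Tsc22d1-201 had 0.106 and 0.110, 7.38 and 10.8, and 0.679 and 1.42 FPKM. Tsc22d1-205 had 0.0796 and 0.492, 4.51 and 11.5, and 0.761 and 0.718 FPKM, so these were highest in LPS. Tsc22d1-214, which starts downstream too, was not, with 0 and 6 counts in control, 1 and 0 in LPS against 0 and 5 in LPS+HACA. Over the 16 annotated transcripts, those starting within 3.87 kb of the first start held 92.8% and 92.4% of the gene's counts in control, 24.8% and 19.6% in LPS against 84.7% and 80.1% in LPS+HACA. Those starting 89.3 to 90.1 kb downstream held 1.40% and 3.19%, 74.9% and 79.7%, and 11.7% and 17.2%. The groups did not overlap in either share.

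**Figure D3:**
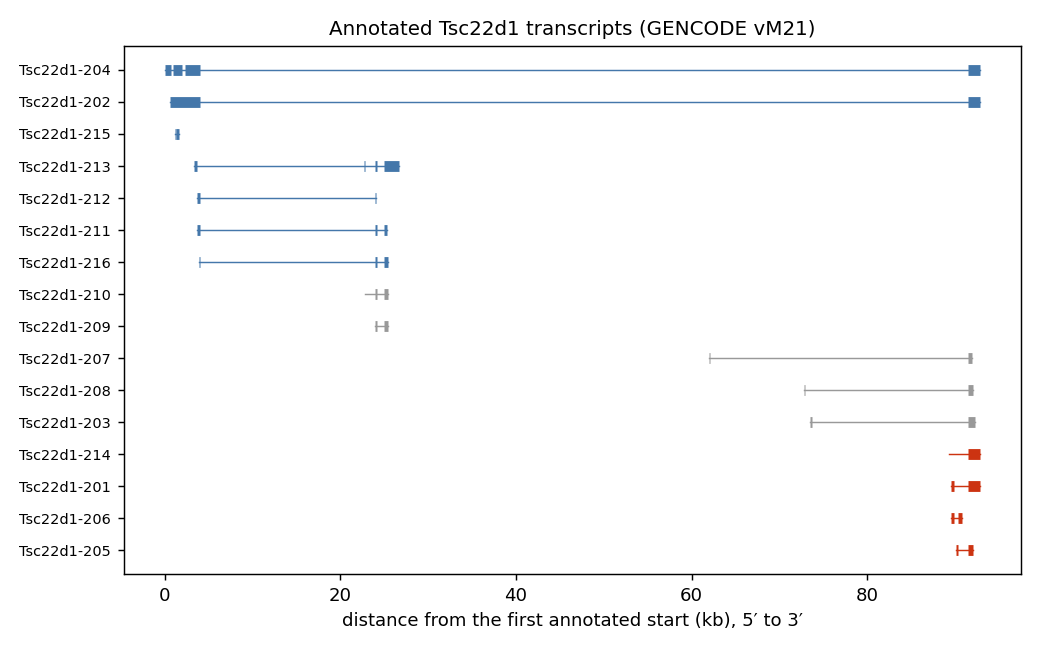
Annotated Tsc22d1 transcripts (rows) by distance from the first start in kb, with exons as bars and introns as lines. Upstream starts are blue, intermediate ones grey and downstream ones red; Tsc22d1-213 starts upstream and ends before the last exon, and Tsc22d1-206 starts 86176 bases after it.

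**Figure D4:**
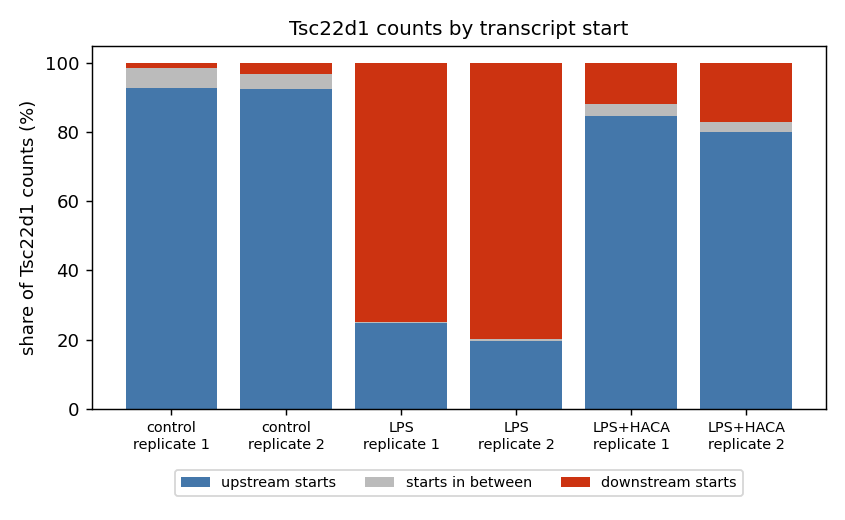
Share of Tsc22d1 counts (vertical axis, percent) by transcript start in each of the 6 libraries, stacked to 100%. Downstream starts (red) hold 74.9% and 79.7% in LPS, 1.40% and 3.19% in control, and 11.7% and 17.2% in LPS+HACA.

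Transcript use was also tested across the genome with edgeR on transcript counts, as a gene-level F test with Benjamini-Hochberg adjustment over 6528 genes and a threshold of 0.05. The test asks whether the transcripts of a gene changed unequally. In simulated data the test made false calls above the nominal rate, so more of the calls below may be false than the threshold implies. Between LPS+HACA and LPS it called 53 genes, 0.812% of those tested, and 4 of the 96: Tsc22d1, Aldh2, Rapgef2 and Mthfsl. Between LPS+HACA and control it called 2 genes, 0.0306%, of which Tsc22d1 was 1. The LPS and control libraries chose the genes, so these tests are only in part independent of the choice. Among the 3237 tested genes above the count minimum, 45 (1.39%) were called between LPS+HACA and LPS. For LPS against control, the contrast of the choice itself, 179 genes (2.74%) and 12 of the 96 were called, and nothing is read from that count.

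For Tsc22d1, the ratio of the LPS to the control transcript was lower in LPS+HACA than in LPS by a log2 change of -4.56 (edgeR, adjusted p = 3.55e-06). It passed under each of the 12 other settings, with adjusted p from 6.27e-08 to 0.022. The difference between LPS+HACA and control (adjusted p = 0.0323) was lost without low-count filtering (0.298), with Simes' method (0.256), with limma-voom (1) and when either control or either LPS+HACA library was left out (0.603 to 1). Summed over its transcripts, Tsc22d1 had a log2 fold change of 0.74 in LPS against control with TMM scaling, given as a description. The summed raw counts of the LPS libraries lay on both sides of control, so that change depends on the scaling.

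Aldh2, the mitochondrial aldehyde dehydrogenase that clears acetaldehyde and lipid aldehydes, had little of its retained-intron transcript left in LPS. The gene lies at chr5:121566027-121593824 on the minus strand. Aldh2-203, the read-through form shown above, had 242 and 262 counts in control, 14 and 23 in LPS against 123 and 159 in LPS+HACA. Coding Aldh2-201 had 624 and 577, 225 and 201, and 384 and 340 counts. In FPKM the read-through form had 14.6 and 16.3 in control, 1.33 and 2.04 in LPS against 7.11 and 9.64 in LPS+HACA, without overlap. The coding form had 10.1 and 9.62, 5.73 and 4.77, and 5.94 and 5.52 FPKM, where LPS and LPS+HACA overlapped. The share of the coding form was 40.8% and 37.1% in control, 81.1% and 70.1% in LPS against 45.5% and 36.4% in LPS+HACA, which overlapped control. The log2 change of the ratio between LPS+HACA and LPS was -2.17 (edgeR, adjusted p = 0.00814). That call was lost without any 1 library other than LPS replicate 2 (0.0916 to 0.361), with Simes' method (0.271) and with limma-voom (0.104).

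Rapgef2 encodes an exchange factor for the small GTPase Rap1. At chr3:79062516-79286517 on the minus strand, its retained-intron transcript Rapgef2-204 had 160 and 153 counts in control, 909 and 687 in LPS against 236 and 227 in LPS+HACA. The processed transcript Rapgef2-203, which led in LPS, had 2 and 7, 138 and 167, and 15 and 10 counts. Both were highest in LPS, in FPKM too. The longest-reaching coding transcript, Rapgef2-206, had 1.69 and 1.43 FPKM in control, 1.17 and 1.67 in LPS against 0.927 and 0.964 in LPS+HACA. LPS thus overlapped control in Rapgef2-206. Coding Rapgef2-201 and Rapgef2-202 were highest in LPS, at 0.989 and 0.671 FPKM and at 0.527 and 0.323 FPKM. The shares of Rapgef2-203, of 9.55% and 27.9%, 56.2% and 67.3%, and 34.9% and 27.1%, put LPS+HACA beside control. The ratio differed between LPS+HACA and LPS by -1.80 on the log2 scale (edgeR, adjusted p = 0.0115), a call lost when any 1 library was left out (0.0659 to 0.404), with Simes' method (0.117) and without filtering (0.0579).

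Mthfsl passed the same test (edgeR, adjusted p = 0.0109), but the ratio of its pair moved by -0.15 on the log2 scale. Its shares were 45.2% and 41.9% in control, 51.9% and 51.2% in LPS against 49.3% and 48.7% in LPS+HACA. Sequence of this gene recurs elsewhere, and the call was lost when any 1 library was left out (0.0712 to 0.318), with Simes' method (0.147) and without filtering (0.437).

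Among genes of RNA processing, Srsf2 had the deepest counts. Srsf2 is an SR protein that binds exonic enhancers in pre-mRNA and is known to control its own transcripts by splicing. At chr11:116849901-116853094 on the minus strand, read-through Srsf2-203 had 1078 and 1354 counts in control, 564 and 997 in LPS against 744 and 1018 in LPS+HACA. Spliced, coding Srsf2-201 had 881 and 1113, 1106 and 1741, and 949 and 1045. Its share was 43.8% and 44.0% in control, 65.2% and 62.5% in LPS against 54.9% and 49.5% in LPS+HACA, so LPS+HACA lay between the groups without overlap. Neither LPS+HACA difference passed the usage test (edgeR, adjusted p = 0.703 against LPS and 1 against control).

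The other RNA-processing genes moved less and from fewer counts. Cpsf7, a subunit of the cleavage factor that helps choose polyadenylation sites, had a coding share of 44.5% and 48.7% in control, 52.2% and 65.5% in LPS against 45.2% and 47.6% in LPS+HACA. Hnrnpm, an hnRNP splicing regulator, passed from a retained-intron to a coding leader, with 48.8% and 47.5%, 51.6% and 60.9%, and 49.1% and 43.5%. In both genes LPS+HACA stayed below LPS. Hnrnpll, known for splicing of Ptprc in lymphocytes, changed between retained-intron transcripts, at 43.9% and 49.7%, 59.2% and 52.5%, and 49.0% and 55.4%, and LPS+HACA overlapped both groups. Fubp1, which binds single-stranded DNA and pre-mRNA, had 27.6% and 46.1%, 50.7% and 50.9%, and 37.3% and 49.2%, with 14 to 41 counts behind its LPS transcript. Wtap, a partner of the RNA methylation enzyme complex, had 49.9% and 45.4%, 55.5% and 55.4%, and 38.9% and 48.5%.

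Stress and inflammatory genes formed another set. Ddit3 encodes CHOP, a transcription factor of the unfolded protein response, at chr10:127290774-127296288. Its read-through transcript Ddit3-202 had 74 and 109 counts in control, 83 and 148 in LPS against 159 and 209 in LPS+HACA. Coding Ddit3-201 had 48 and 31, 121 and 306, and 134 and 273. In FPKM the read-through form stood at 4.78 and 7.25 in control, 8.44 and 14.03 in LPS against 9.81 and 13.5 in LPS+HACA. It was thus higher in both treated groups than in control in FPKM. In raw counts LPS overlapped control, so the difference between these groups depends on the scaling. The coding share was 41.4% and 23.6%, 61.3% and 69.2%, and 47.9% and 58.7%.

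Tnip3, a partner of the NF-kB inhibitor A20, had a retained-intron transcript with 563 and 870 counts in control, 2049 and 1059 in LPS against 1772 and 1441 in LPS+HACA. Its coding transcript had 403 and 607, 1965 and 1432, and 1488 and 1216, and a share of 46.8% and 46.1%, 54.1% and 62.4%, and 50.8% and 50.9%. Both forms had more raw counts in each LPS library than in either control library, with the retained-intron form closest at 1059 in LPS against 870 in control. These counts do not allow for library size. The LPS+HACA share lay between the groups. Rps6ka5 encodes MSK1, a kinase of histone H3 and CREB. Its coding share was 42.5% and 31.9% in control, 73.0% and 69.7% in LPS against 43.1% and 48.8% in LPS+HACA, the last 2 well below LPS, from 21 to 101 counts a transcript.

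Sp110 and Sp140, interferon-inducible nuclear body proteins, rested on few counts of the LPS transcript in control, 16 and 16 for Sp110 and 7 and 17 for Sp140. The share of Sp110-209 was 38.0% and 35.5% in control, 53.3% and 56.7% in LPS against 42.0% and 49.4% in LPS+HACA. For Sp140-202 it was 18.2% and 36.9%, 52.2% and 50.8%, and 45.9% and 31.2%. In both genes LPS+HACA lay below LPS, and both carry sequence that recurs in other genes. Ero1lb, an oxidase of disulfide formation in the endoplasmic reticulum, changed between coding transcripts, with 40.1% and 28.5% in control, 63.6% and 60.01% in LPS against 35.7% and 31.6% in LPS+HACA. Its LPS+HACA libraries fell in the control range.

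Signalling genes included Plekhn1, a pleckstrin homology domain protein, whose leader changed from a coding transcript to one annotated as retained intron. On chr4, Plekhn1-201 spans 156229044-156234857 and Plekhn1-205 spans 156221456-156228500. They share no base, so Plekhn1-205 retains no intron of Plekhn1-201. Coding Plekhn1-201 had 800 and 813 counts in control, 168 and 166 in LPS against 521 and 517 in LPS+HACA, while Plekhn1-205 had 715 and 543, 736 and 833, and 840 and 695. In FPKM, which divides by the effective library size, the coding form was lowest in LPS (5.49 and 5.06, from 16.6 and 17.4 in control). The retained form was highest there (15.7 and 16.6, from 9.68 and 7.57). Its raw counts overlapped between LPS and LPS+HACA, so its place above LPS+HACA depends on that scaling. The share of the retained form was 36.8% and 30.3%, 74.1% and 76.6%, and 51.3% and 46.7%, and the groups did not overlap (edgeR usage test, LPS+HACA against LPS, adjusted p = 0.115).

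Runx1, a transcription factor of blood cell development, had a processed transcript, Runx1-207, with 794 and 581 counts in control, 127 and 178 in LPS against 720 and 436 in LPS+HACA. Coding Runx1-201 had 1127 and 877, 643 and 826, and 1186 and 1016. Its share was 38.1% and 39.5% in control, 68.7% and 66.8% in LPS against 41.6% and 50.2% in LPS+HACA, nearer control than LPS. Runx1 was named after its values were seen.

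Abr, a regulator of small GTPases, had 49.8% and 36.5%, 52.3% and 57.3%, and 44.1% and 64.8%, so 1 LPS+HACA library lay in the control range and the other above LPS. Arap1, a GTPase-activating protein, had 49.4% and 40.2%, 57.2% and 56.5%, and 47.2% and 44.4%, so LPS+HACA fell in the control range.

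In cell division and protein turnover, Ncapg2, a condensin II subunit, passed from a retained-intron to a coding leader. Its shares were 37.7% and 35.8% in control, 53.7% and 55.5% in LPS against 50.8% and 46.8% in LPS+HACA, while its summed counts varied from 281 in 1 LPS library upward. Huwe1, a ubiquitin ligase, had 45.5% and 37.4%, 60.01% and 55.7%, and 44.7% and 62.3%, so 1 LPS+HACA library lay in the control range and the other above LPS here too. Orc4, of the origin recognition complex, had 48.5% and 29.3%, 52.5% and 51.6%, and 43.6% and 42.8%. Wdr48, a cofactor of deubiquitinating enzymes, had 45.8% and 27.7%, 64.4% and 61.8%, and 42.7% and 59.5%, from as few as 9 counts.

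The remaining genes among the 20 with the largest raw-count ratio showed the same range of outcomes. That ratio, the smallest over the control and LPS libraries, was above 0 on the log2 scale in 13 of the 96 genes. In the rest of the 20 the leader had no more raw counts than its rival in some library. Tbce, a tubulin folding cofactor, had 35.4% and 27.8% in control, 56.1% and 61.1% in LPS against 42.2% and 36.1% in LPS+HACA. Armcx5, an armadillo repeat protein, had 46.4% and 43.8%, 72.6% and 79.2%, and 53.9% and 64.5%. Gabpb1, a subunit of the transcription factor GABP, had 41.1% and 41.2%, 52.2% and 52.3%, and 47.9% and 62.1%. Bnip2, a BCL2-interacting protein, had 43.5% and 45.5%, 58.0% and 56.8%, and 50.9% and 54.9%. LPS+HACA lay between the groups in Tbce, Armcx5 and Bnip2, and its second library lay above LPS in Gabpb1.

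**Figure D5:**
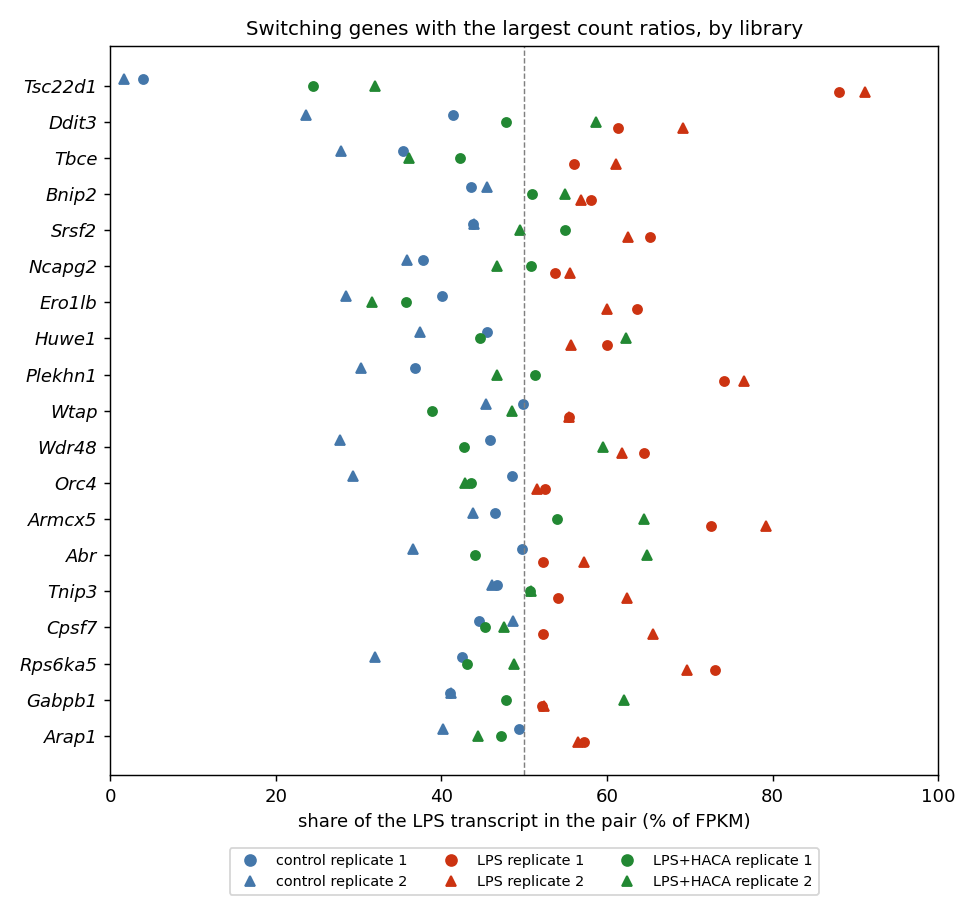
Share of the LPS transcript in the pair (horizontal axis, percent of FPKM) in each library for 19 of the 20 genes with the largest raw-count ratio between leader and rival and at least 20 counts behind each leader. The leader was ahead in raw counts in every control and LPS library in 13 of all 96 genes. Control is blue, LPS red and LPS+HACA green. Tsc22d1 spans 1.69% to 91.1%, while each other gene spans a narrower range across the dashed line at 50%.

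In LPS+HACA the 96 genes divided between both leaders. Both LPS+HACA libraries had the control leader in 29 genes (30.2%), both had the LPS leader in 16 (16.7%), and the libraries disagreed in 51 (53.1%). Among the 4269 other genes above the minimum the LPS+HACA libraries disagreed in 296 (6.93%). These sets are unlike: of all 4365 genes, 3621 had 2 or more transcripts with a count. Single-leader genes also had a median control lead of 5.50 times, against 1.35 in the 96. In replicate 1 of LPS+HACA 51 genes had the control leader, 42 the LPS leader and 3 another transcript, and in replicate 2 these numbers were 48, 37 and 11. The mean LPS+HACA share lay between the control and LPS means in 81 genes, below control in 10 and above LPS in 5 (Gabpb1, Nup88, Sbno2, Mroh1 and Srgap2), and it was nearer to control in 60. Both LPS+HACA libraries lay strictly between the groups in 34 genes, overlapped the control range only in 35, the LPS range only in 17 and both in 10. Since the choice placed control and LPS on opposite sides of the line, a mean between them is no sign of an effect by itself and is given as a description.

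Genes with the control leader in both LPS+HACA libraries included Slc11a2, Arl10, Anxa3, Mosmo, Hnrnpm and Dctn4. Slc11a2 encodes the iron transporter DMT1, whose forms are known to differ at their 3' ends. Its shares were 38.0% and 46.2% in control, 51.9% and 57.6% in LPS against 47.0% and 48.9% in LPS+HACA, from 646 to 1765 counts a transcript. Arl10, an Arf-like GTPase, had 48.3% and 44.9%, 69.1% and 63.3%, and 41.2% and 49.4%. Anxa3, an annexin that binds membranes with calcium, had 45.9% and 46.7%, 51.9% and 52.8%, and 49.6% and 49.2%. Mosmo and Dctn4, a dynactin subunit, had LPS+HACA shares of 45.5% and 48.4%, and of 41.2% and 49.0%.

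Genes with the LPS leader in both LPS+HACA libraries included Nup88, Sbno2, Ppp3cb, Zfhx2, Ifrd1 and Rmnd1. Ifrd1, an interferon-related regulator of transcription, had shares of 49.7% and 38.3% in control, 69.3% and 61.1% in LPS against 66.2% and 60.02% in LPS+HACA, so LPS+HACA overlapped LPS. Sbno2, a coregulator downstream of interleukin-10, had 44.7% and 49.96%, 53.1% and 56.0%, and 56.2% and 58.5%. Nup88, a nucleoporin, had 46.5% and 46.8%, 54.5% and 54.3%, and 56.8% and 54.6%. In these 3 genes LPS+HACA stayed above control. Ppp3cb, a calcineurin catalytic subunit, had 42.6% and 45.7%, 63.7% and 81.8%, and 51.0% and 60.4%, and Zfhx2, a homeobox gene, had 50.1% in each LPS+HACA library, at the line itself.

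Total levels of the switching genes were compared with edgeR on counts summed per gene, 17113 genes tested, with Benjamini-Hochberg adjustment. Values and calls use TMM scaling unless another is named. For LPS against control, the contrast of the choice, 26 of the 96 were higher and 10 lower, where 15.9% of genes tested were higher and 14.3% lower, and nothing is read from that count. Against LPS, 13 of the 96 passed in LPS+HACA and each was lower, where 5.74% of genes tested were higher and 7.67% lower. At an unadjusted p under 0.05, 8 of the 96 were higher in LPS+HACA, and DESeq2 called 2 and limma-voom 1 higher. Those 13 included Sp140 (log2 fold change -1.69, adjusted p = 0.00682), Ifrd1 (-1.51, 0.0145), Sp110 (-1.24, 0.0134) and Wdr48 (-1.27, 0.0332), by edgeR. Of these 4 calls, that of Sp140 was kept under each other setting. The others were lost with library totals (0.0699 to 0.136) and without at least 1 library. Against control, Sp110 and Mthfsl were higher in LPS+HACA, by 1.34 and 1.32 on the log2 scale, where 0.894% of genes tested were higher and 0.257% lower.

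These directions depend on the scaling. With library totals in place of TMM factors, the median log2 change over genes tested moved from -0.05 to -0.69 for LPS against control and from 0.06 to 0.70 for LPS+HACA against LPS. The median of the 96 genes moved from 0.38 to -0.26 and from -0.20 to 0.45. Counts of switching genes became 14 higher and 22 lower in LPS, and 20 higher and 4 lower in LPS+HACA. Relative to the median of genes tested, the median switching gene was higher in LPS than in control and lower in LPS+HACA than in LPS under both scalings. The choice set a count minimum in control and LPS that the genes tested did not have to meet. This difference is therefore a description, and nothing is read from it.

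Genes that act on RNA were listed by role to set beside the switches, with the same gene-level test. The counts of each list stand beside the shares over genes tested. These were 15.9% higher and 14.3% lower in LPS than in control, and 5.74% higher and 7.67% lower in LPS+HACA than in LPS. Of 16 SR splicing factors, 6 were higher in LPS than in control with TMM scaling. That became 1 higher without either control library, and 1 higher and 1 lower with library totals. Tra2b, an SR-like splicing activator, had 51.9 and 70.7 CPM in control, 203 and 201 in LPS against 96.2 and 102 in LPS+HACA. It was higher in LPS by 1.72 ± 0.23 (SE) on the log2 scale (edgeR, adjusted p = 0.00146) and lower in LPS+HACA than in LPS by -1.03 ± 0.22 (adjusted p = 0.0249). The second call, the 1 among SR factors in that comparison, was lost with library totals (0.261) and without either control or either LPS+HACA library (0.0539 to 0.166). Tra2a and Srsf4 were also higher in LPS, by 1.07 and 1.16, calls lost without either control library (0.0737 to 0.206) and with library totals (0.204 and 0.312).

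Of 32 hnRNP and other splicing regulators tested, 6 were higher and 2 lower in LPS, where 15.9% of genes tested were higher and 14.3% lower. With library totals 1 was higher and 8 lower. Without control replicate 1 the 1 call was lower, and without control replicate 2 there was 1 in each direction. Mbnl2, a muscleblind splicing regulator, had 56.1 and 66.4 CPM in control, 130 and 196 in LPS against 80.8 and 91.3 in LPS+HACA. Tia1, which binds U-rich sequence near splice sites, had 19.3 and 22.2, 5.71 and 4.05, and 18.04 and 14.9 CPM. It was lower in LPS by -2.09 ± 0.29 (SE; edgeR, adjusted p = 0.00182) and higher in LPS+HACA than in LPS by 1.75 ± 0.29 (adjusted p = 0.0109). It was the 1 gene of this list to pass there, lost without LPS+HACA replicate 1 (0.0705), while with library totals 7 were higher. Celf2 was lower in LPS by -2.10, a call lost without either control library (0.0529 and 0.0626), and Mbnl2's was lost without control replicate 1 (0.0684).

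Among 8 SR protein kinases, 1 passed in LPS against control and in LPS+HACA against LPS. Srpk2 had 28.6 and 25.7 CPM in control, 9.95 and 6.45 in LPS against 18.2 and 18.1 in LPS+HACA. Its LPS+HACA call (log2 fold change 1.15, edgeR, adjusted p = 0.0358) was lost without any 1 library other than LPS replicate 1 (0.0755 to 0.148). Of 19 core spliceosome genes 2 were higher in LPS, where 15.9% of genes tested were. These were Sf3b1 and Sf3b3, subunits that help recognise the branch point. Sf3b3 had 128 and 120, 233 and 256, and 130 and 133 CPM, and was the 1 gene of the list lower in LPS+HACA than in LPS, a call lost with library totals (0.374) and without either control or either LPS+HACA library (0.0754 to 0.168). The LPS calls of Sf3b1 and Sf3b3 were lost without either control library (0.0703 to 0.28). Of 16 genes of 3' end cleavage and polyadenylation, Cpsf2 and Cstf2 were higher in LPS and Cpsf3, the endonuclease of the complex, was lower, at 7.59 and 6.68, 2.56 and 2.12, and 7.71 and 7.10 CPM. These 3 calls were lost without control replicate 1 (0.0515 to 0.262). Of 13 genes of nonsense-mediated decay 4 were higher in LPS, among them Upf3a and Magoh, and Upf3b was lower; each of these 5 calls was lost without either control library. With library totals, the genes of these 4 lists that passed were each lower in LPS: 4 kinases, 1 spliceosome gene, 4 of cleavage and polyadenylation and 2 of decay.

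Innate signalling genes with known isoforms moved most: 38 of 57 were higher and 1 lower in LPS than in control, and 22 were lower and 1 higher in LPS+HACA than in LPS. With library totals these became 28 and 8, and 14 and 4. Without 1 control library 24 and 26 were higher in LPS, and without 1 LPS+HACA library 10 and 12 were lower in LPS+HACA. Cd40, a costimulatory receptor, had 1.25 and 1.46 CPM in control, 119 and 193 in LPS against 13.2 and 17.2 in LPS+HACA. Few of the switching genes belong to these lists: Srsf2, Fubp1, Hnrnpll, Hnrnpm, Cpsf7, Sp110 and Sp140. The lists were assembled with earlier results of these data known.

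Libraries held 12529874 to 15379496 counts, and TMM factors were 0.81 and 0.68 in LPS against 1.14 to 1.19 in the others. Macrophage markers summed to 35858 to 48889 CPM, with all 10 genes detected. Stromal markers summed to 54.4, 26.2 and 58.8 CPM in replicate 1 of control, LPS and LPS+HACA and to 1.497 to 1.996 in replicate 2, so they differed mainly by replicate number; their part in the results was not tested. Other marker lists summed to at most 54.7 CPM, and Cd3e, Cd8a, Cd79b, Ly6g, Fcer1a and Mcpt4 were at 0 counts in every library. In bulk RNA, fewer cells with a transcript and less of it per cell cannot be told apart.

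At the edge of the choice, Emc8, Prcp and Rmnd1 had 100, 102 and 102 counts in their lowest library, and Rffl, Fryl and Rnf220 met the other conditions with 97 and stayed out. Their LPS shares were 52.4% and 67.5% in Emc8, 71.7% and 66.5% in Prcp, and 65.3% and 50.9% in Rmnd1, beside 59.0% and 68.3% in Rffl, 68.8% and 54.8% in Fryl, and 57.7% and 54.3% in Rnf220.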

How the data were processed

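Poly-A RNA went into TruSeq libraries, per the labels. Raw counts for each annotated transcript were deposited by the authors and are whole numbers. The authors also deposited FPKM values, which equalled count divided by annotated length and by 1 effective size per library, with 99.6% of transcripts of 50 or more counts inside 0.1%. The submitters' processing notes name STAR 2.5.4b and Trim Galore among their tools, without saying what each was used for, and the builds GRCm38 and GRCh38. How shared reads were counted is not given in the sources used here. Transcripts with at least 100 bases of their own, covered by no other annotated transcript, held 99.2% of counts, and those without any held 0.0672%. Those whose own bases lie only on their own strand held 0.0093%.

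Of 142647 transcripts, 141524 matched GENCODE vM21 and fell into 55263 genes. The 1123 others, with up to 0.115% of the counts in a library, were left out. Transcript counts and counts summed per gene were fitted with edgeR 4.0.16 (R 4.3.3; filterByExpr, TMM, robust quasi-likelihood, group as the only term, 3 residual df), and usage with diffSpliceDGE. The fits were tested on simulated data, where false usage calls exceeded the nominal rate. Each SE is the absolute log2 fold change over the root of F. Alternatives used limma 3.58.1, DESeq2 1.42.0, other scalings, filters and rankings, a replicate block and leaving out each library.

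The genes and lists were chosen with earlier results of these data known. Named were the 20 genes with the largest value of the smallest log2 ratio (counts + 0.5) of leader to rival over the control and LPS libraries, given at least 20 counts behind each leader. Up to 6 further genes were named for each LPS+HACA outcome, with list genes (up to 3 called genes a direction) and 3 genes on each side of the minimum. Genes called in the LPS+HACA usage tests, Runx1, and the ratio of retained-intron to coding counts were added after the data were seen. Numbers shared by replicates of different groups name no batch in the labels, so they were not used to pair samples. Some genes that this rule names are not reported here.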

Additional observations from a re-analysis of the deposited data

How the results depend on the processing

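With library totals the switching genes changed direction at gene level, and their median moved from 0.38 to -0.26 for LPS against control and from -0.20 to 0.45 for LPS+HACA against LPS. The number of switching genes was 96, and it was 59 when ranked by raw counts, 14 with a minimum of 500 counts a gene, 2 with a 2-fold lead in every library, and 184 to 239 when 1 control or LPS library was left out, which leaves fewer conditions to meet. In LPS+HACA, both libraries had the control leader in 50% of the genes with a 2-fold lead, and the LPS leader in 0% of these 2 genes and in 35.6% of genes ranked by raw counts, where 30.5% disagreed. Usage calls, over genes tested and over the 96, fell from 53 and 4 between LPS+HACA and LPS to 17 and 2 without filtering, 11 and 1 with Simes' method, 9 genes tested with limma-voom, and 7 to 29 and 1 to 2 without 1 library. Between LPS+HACA and control, edgeR's 2 and 1 became 0 and 0 without filtering (281 and 5 at an unadjusted p under 0.05), with Simes' method (90 and 3) and with limma-voom (132 and 6), and 0 to 6 and 0 to 1 without 1 library; leaving out either control or either LPS+HACA library gave 0 (135 to 257 and 3 to 5 at an unadjusted p under 0.05). Between LPS and control, 179 and 12 became 73 and 5 without filtering, 56 and 6 with Simes' method, 40 and 6 with limma-voom, and 30 to 105 and 2 to 7 without 1 library. At gene level between LPS+HACA and LPS, 983 higher and 1312 lower genes, with 13 of the 96 lower, became 3501 and 522 with library totals (20 and 4 of the 96), 1845 higher (2 of the 96) without filtering, 152 to 1617 and 216 to 1793 without 1 library (0 to 4 and 2 to 21 of the 96), and 2 of the 96 higher with DESeq2 and 1 with limma-voom. Between LPS and control, 2715 higher and 2442 lower genes (26 and 10 of the 96) became 1417 and 5111 with library totals (14 and 22), and 1190 to 3024 and 916 to 2817 without 1 library (11 to 32 and 2 to 10). The median difference of the ratio of retained-intron to coding counts ran from -0.38 to -0.18 for LPS against control and from 0.21 to 0.43 for LPS+HACA against LPS without 1 library, alternatives chosen after seeing the data. Where a group was left with 1 library, it was assumed to vary like the others. The cause of these changes was not tested.

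Same-numbered libraries of 2 groups deviated together with correlations of 0.31, 0.51 and 0.50 over genes, but the labels give the numbers no meaning and there are 2 of them. With the replicate number as a block, usage calls were 51 genes and 6 of the 96 between LPS+HACA and LPS, 3 and 1 between LPS+HACA and control, and 221 and 17 between LPS and control. At gene level the block gave 1955 higher and 2356 lower genes between LPS+HACA and LPS, 8 and 22 of the 96, and 3506 and 3384 between LPS and control, 37 and 14 of the 96. Over the gene lists, the block gave 8 SR factors higher in LPS than in control and 6 lower in LPS+HACA than in LPS. Among hnRNP and other regulators it gave 9 higher and 4 lower, and 3 higher and 5 lower; among core spliceosome genes 6 higher, and 2 lower; among innate signalling genes 40 higher and 1 lower, and 2 higher and 34 lower.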
